A study of Homo sapiens with 6 samples.

Results

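The 31 genes described here make cholesterol and fatty acids or control their synthesis. They were chosen by symbol, from pathway membership, out of 22496 gene symbols listed in at least 1 library. Earlier results of these data were known when they were chosen. Every one of the 31 was listed in all 6 libraries. They divide into 18 enzymes of the sterol branch, 6 regulators and 7 enzymes of the fatty acid branch. Poly-A RNA came from LoVo, an established line of human colon adenocarcinoma cells, in 3 libraries of non-target cells, which served as the control, and 3 of SHARPIN knockout cells. SHARPIN belongs to the complex that assembles linear ubiquitin chains. The labels give no treatment, guide or time, and the sources used here do not say whether the knockout cells are 1 clone or a pool. The libraries are called non-target 1, 2 and 3 and knockout 1, 2 and 3 after their replicate numbers. The labels do not say whether replicates were separate cultures, and p-values therefore reflect only how far these libraries vary, for which a technical source is possible.

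Cells adjust both branches through the SREBP transcription factors, which are made as membrane proteins of the endoplasmic reticulum from the genes SREBF1 and SREBF2. When sterols are scarce, the escort protein SCAP carries the SREBP precursor to the Golgi, where proteases release the part that enters the nucleus. When sterols are plentiful, the INSIG proteins hold SCAP back. The factor from SREBF2 is known mainly for sterol genes and the main form from SREBF1 mainly for fatty acid genes, and INSIG1 is itself a target of the pathway. SREBP binds DNA with helpers, among them NF-Y, which binds the sequence CCAAT.

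The promoter sequences below show these elements for members whose values are described later, SREBF2 for the sterol regulatory element and the others for their NF-Y boxes. They are RefSeq sequences of the assembly GRCh38.p14, read 5′ to 3′ on the strand of the gene and lying wholly before the annotated start. Capitals mark a sterol regulatory element (TCACNCCAC) or an NF-Y box (CCAAT), on either strand, so that a box on the other strand reads ATTGG. The windows are SREBF2 at chr22:41832952-41833023 (+), INSIG1 at chr7:155297688-155297732 (+), DHCR7 at chr11:71448417-71448507 (-), MSMO1 at chr4:165327464-165327659 (+) and SCD at chr10:100346984-100347071 (+).
SREBF2: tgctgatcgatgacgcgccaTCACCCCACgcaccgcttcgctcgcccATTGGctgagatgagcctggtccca
INSIG1: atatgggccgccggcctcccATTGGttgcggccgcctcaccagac
DHCR7: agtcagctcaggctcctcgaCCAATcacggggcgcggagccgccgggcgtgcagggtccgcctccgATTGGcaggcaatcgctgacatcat
MSMO1: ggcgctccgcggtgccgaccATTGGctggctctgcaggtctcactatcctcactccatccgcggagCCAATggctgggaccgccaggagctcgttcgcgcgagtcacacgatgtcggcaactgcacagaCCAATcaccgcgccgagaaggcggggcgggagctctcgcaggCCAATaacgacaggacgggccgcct
SCD: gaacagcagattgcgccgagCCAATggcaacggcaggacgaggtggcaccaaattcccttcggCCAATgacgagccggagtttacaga

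Of the 31 members, 27 had a promoter in the table, and FDFT1, SQLE, ACAT2 and FASN had none. The window was 300 bases, from 250 before the start to 50 after it, and both strands were searched. CCAAT stood in 20 of 27 members (74.1%), against 39.7% of 27305 genes with a promoter of the same length. In the sterol branch it stood in 13 of 15 (86.7%). TCACNCCAC stood in 1 of 27 members (3.7%), SREBF2, against 1.39% of all genes. The GC box GGGCGG stood in 26 of 27 (96.3%) against 48.3%, and the E-box CACGTG in 4 of 27 (14.8%) against 8.77%. The elements in capitals do not overlap one another. DHCR7 has a second annotated window, at chr11:71448994-71449293, which holds none of these motifs and is not shown. The motifs counted and marked here are matches of letters and carry no test, and a match does not show that a factor binds there. The 27305 genes were not limited to genes expressed in these cells, whereas all members were expressed. The shares were not compared with those of expressed genes alone.

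Depth is not given in the files. A rough estimate from the steps between low values was 21100000 to 22600000 fragments a library, but most of the values used did not lie on the step. Each library listed 19068 to 20158 symbols. SHARPIN itself stood at 11.9, 13.9 and 12.9 FPKM in non-target 1, 2 and 3 and at 7.55, 11.9 and 18 in knockout 1, 2 and 3, so its transcript level does not separate the labels. FPKM count fragments relative to transcript length and to all mapped fragments of the library. Of 8 epithelial markers, 6 stood at 1 FPKM or more in every library, and the 8 summed to 3809 to 4989 FPKM in non-target and 4167 to 8767 in knockout, nearly all of it KRT8 and KRT18. GPA33 and CEACAM5 went the other way, from means of 46.7 and 47.7 FPKM to 1.48 and 13.4 (limma adjusted p = 2.4e-05 and 0.00729). VIL1 also went down, from a mean of 2.39 to 0.51 FPKM. It was below 1 FPKM in every knockout library and passed the filter only through non-target, so no p is given for it. The EPCAM mean went from 195 to 165 with overlapping groups, while CDH1 and CDX2 had higher means in knockout. The 6 fibroblast markers summed to 7.77 to 18.8 FPKM in non-target and 0.234 to 0.798 in knockout. COL1A1 and COL1A2 stood at 6.60 and 6.12 in non-target 1. In non-target 2 and 3 nearly all of the sum was LUM, at 7.52 and 7.45 FPKM. LUM stood at 5.03 in non-target 1 and at 0.385, 0.199 and 0.151 in knockout 1, 2 and 3. The 6 leukocyte markers summed to 64.6 to 91.4 in non-target and 30.9 to 38.3 in knockout, with CD3E and TYROBP at 0. Within that sum LYZ fell from a mean of 53.8 to 2.1 FPKM (limma adjusted p = 2.6e-05), while CD68 stood at 22 and 31.6. The part of these cell types in the results was not tested. The 4 endothelial and the 5 adipocyte and hepatocyte markers summed to at most 0.626 FPKM in any library, with KDR, ADIPOQ and APOA2 at 0. The libraries numbered 1 stood apart on the second principal component, with scores of 20.6 (non-target 1) and 36.3 (knockout 1), where the other 4 scored -9.04 or lower. Non-target 2 and 3 were nearly alike (Pearson r = 0.997 across genes), and counting them as 1 sample left 0 members called.

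Most of the 31 genes had higher mean levels in the knockout libraries, led by INSIG1 and SCD, but none of them passed the test across all genes. The log2 fold change of knockout over non-target was positive in 26 of 31 members (83.9%), against 52% of 13092 genes tested. Its median was 0.29 over the members and 0.02 over all genes. All 31 passed the filter on low values, so the count covers every member. Across the other scalings tried (TPM, median ratio and quantile), 23 to 25 members were positive, and without knockout 1 it was 21. Fold changes are on the scale of log2(FPKM + 1), which understates the change of low genes. In bulk RNA, fewer cells of a type and less RNA per cell cannot be told apart.

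With limma, 0 of 31 members were higher and 0 were lower at an adjusted p under 0.05, where 6.26% of all genes were called higher (820) and 5.93% lower (777). With TPM scaling these were 670 and 963 genes, and again 0 members. At an unadjusted p under 0.05, 7 members were higher and 1 was lower, or 22.6% and 3.23%, against 13.5% and 12% of all genes. The 7 were MVD, LSS, ACAT2, INSIG1, SCAP, ACLY and FADS2, and the 1 was FADS1. With the replicate number as a block, limma called 10 members higher and 1 lower, or 32.3% and 3.23%, against 13.5% and 11.8% of all genes. The 10 were MVD, IDI1, MSMO1, DHCR7, ACAT2, INSIG1, STARD4, SCD, ACLY and FADS2, and the 1 was again FADS1. That fit has 2 residual degrees of freedom a gene, and limma took the spread of 86.4% of genes wholly from genes of similar level, so its calls rest on a shared spread. The labels do not say that a replicate number marks a shared batch, and in the values only the pairing of the libraries numbered 1 stands out. Without both libraries numbered 1, it called 4 members higher (INSIG1, SCAP, SCD and FADS2) and 1 lower (HMGCS1), against 8.29% and 4.96% of the 12371 genes tested there. With array weights, which gave the 6 libraries weights from 0.177 to 9.47, it called 14 higher and 4 lower, against 24.5% and 15.8% of all genes. Knockout 2 had a weight of 2.39 there, and knockout 1 and 3 had 0.177 and 0.236. The knockout side of that fit thus rests largely on knockout 2. INSIG1, SCD and FADS2 were called higher with the block, without both libraries numbered 1 and with array weights. These fits share libraries, so their calls are not independent, and 16 of the 24 alternatives tried called no member.

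**Figure D1:**
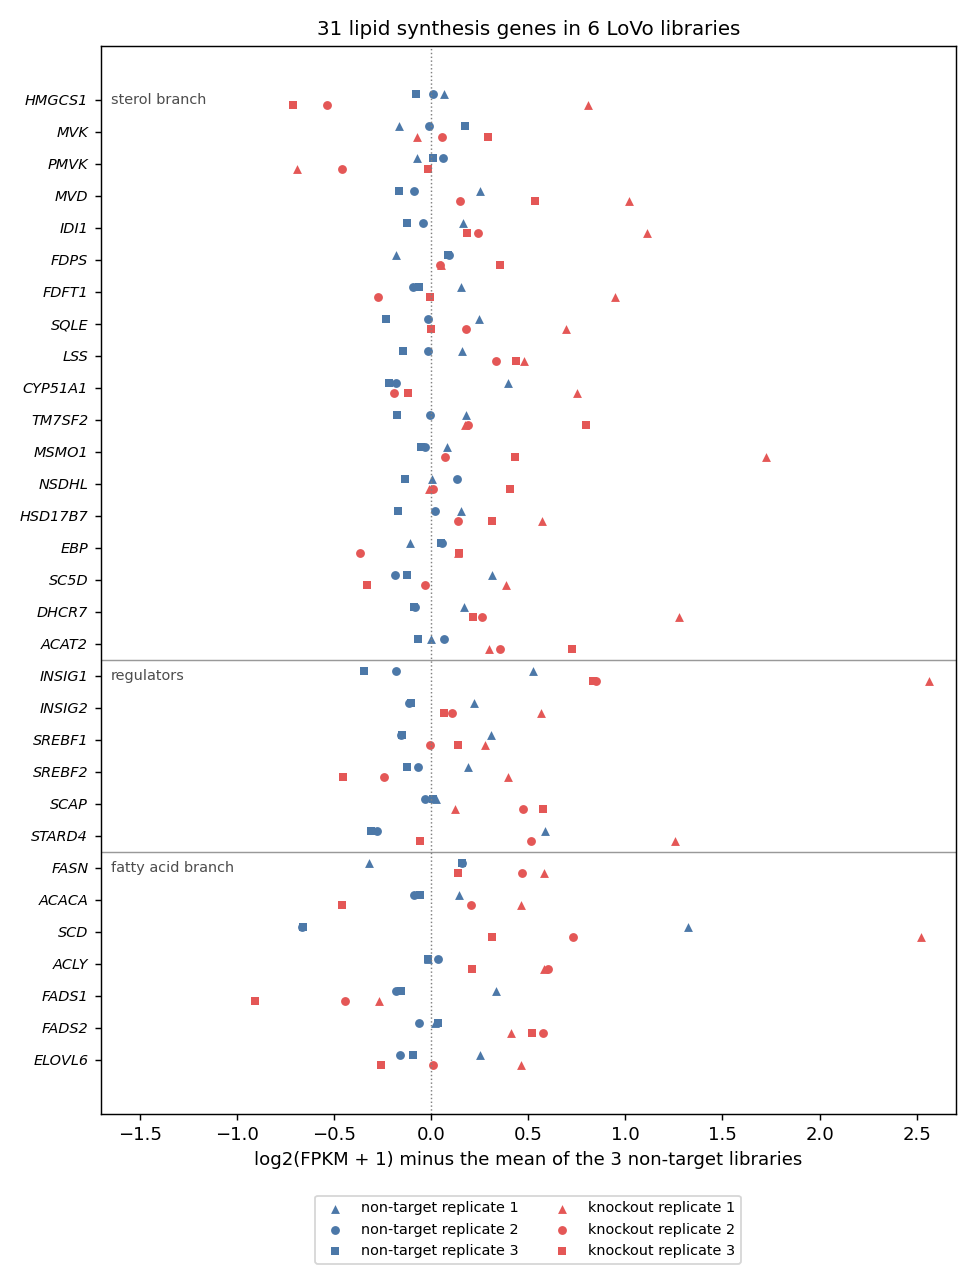
Level of each of the 31 genes in each library, as log2(FPKM + 1) minus the mean of the 3 non-target libraries, so that 0 is the non-target mean; blue symbols are non-target and red symbols knockout, and triangles, circles and squares are replicates 1, 2 and 3. Red triangles lie far right of the other red symbols in several sterol genes and regulators, and in the fatty acid branch mainly in SCD. All 3 knockout libraries lie above all 3 non-target libraries in 8 genes.

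The values of the 2 genotypes did not overlap in 9 of the 31 genes. Every knockout library lay above every non-target library in 8 of them (25.8%; 16.5% of all genes). These were IDI1, LSS, DHCR7 and ACAT2 of the sterol branch, the regulators INSIG1 and SCAP, and ACLY and FADS2 of the fatty acid branch. Every knockout library lay below every non-target library in 1 member, FADS1 (3.23%; 15.7% of all genes). In the other 22 members the groups overlapped. Read within same-numbered pairs, knockout was above non-target in all 3 pairs in 16 members (51.6%; 27.6% of all genes) and below it in all 3 in 2, PMVK and FADS1 (6.45%; 24.1% of all genes). The median log2 difference over the 31 members was 0.35, 0.20 and 0.25 in pairs 1, 2 and 3, against -0.09, 0.09 and 0.07 over all genes. The labels do not mark these as pairs, and the division into pairs 2 and 3 is arbitrary by the values.

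The libraries numbered 1 held the highest levels of many of these genes in both genotypes. The library numbered 1 was the highest of its 3 in both groups in 20 of 31 members (64.5%; 24.4% of all genes), namely in 11 of 18 sterol genes, 5 of 6 regulators and 4 of 7 fatty acid genes. Knockout 1 stood at least 1.5 times above both other knockout libraries in 10 members (32.3%; 7.13% of all genes): HMGCS1, IDI1, FDFT1, CYP51A1, MSMO1, DHCR7, INSIG1, SREBF2, STARD4 and SCD. Its log2 excess over the mean of knockout 2 and 3 had a median of 0.48 over the members and -0.08 over all genes. The same excess of non-target 1 over non-target 2 and 3 had a median of 0.24 over the members and 0.06 over all genes. The part of this in the difference between genotypes was not tested beyond the values given with and without these libraries.

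**Figure D2:**
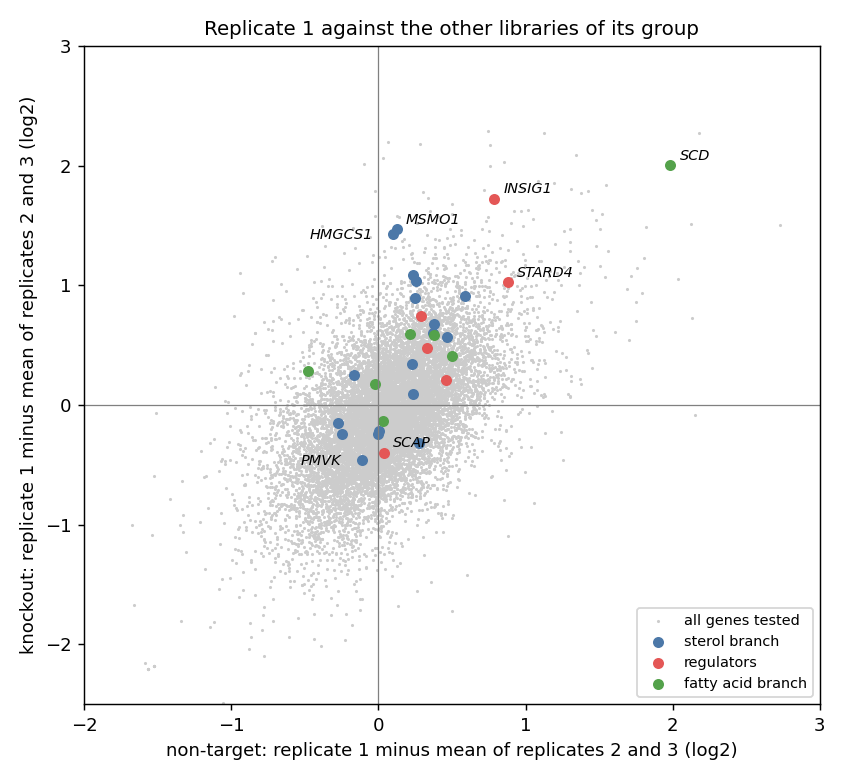
Difference between replicate 1 and the mean of replicates 2 and 3 on the log2(FPKM + 1) scale, in non-target (x axis) and in knockout (y axis), for the 31 genes by branch (coloured) and all genes tested (grey; 2 genes lie outside the plot). SCD lies far up on both axes, INSIG1 and STARD4 are up on both, and MSMO1 and HMGCS1 are up in knockout with little difference in non-target.

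The early enzymes of the sterol branch carry acetyl-CoA to farnesyl diphosphate, and their values went in different directions. ACAT2, the cytosolic thiolase that makes acetoacetyl-CoA, stood at 11.3, 11.9 and 10.8 FPKM in non-target and 14.1, 14.7 and 19.4 in knockout. The groups did not overlap, and the log2 fold change was 0.46 ± 0.17 (SE, n = 3 a group; limma adjusted p = 0.124, and 0.0391 with the replicate block). HMGCS1, the synthase that joins acetoacetyl-CoA with acetyl-CoA, stood at 7.40, 7.10 and 6.63 FPKM in non-target and 13.1, 4.55 and 3.92 in knockout. Knockout 1 was thus the highest and knockout 2 and 3 the lowest of the 6 libraries. Its log2 fold change was -0.15 ± 0.35 (limma adjusted p = 0.841), and without knockout 1 it was -0.62 (adjusted p = 0.031).

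The kinases of mevalonate followed no common pattern. MVK, mevalonate kinase, ranged from 3.27 to 4.41 FPKM in non-target and from 3.56 to 4.87 in knockout, with a log2 fold change of 0.09 (limma adjusted p = 0.802). PMVK, the next kinase, stood at 7.78, 8.64 and 8.30 FPKM in non-target and 4.72, 5.73 and 8.14 in knockout. Knockout 3 lay within the non-target range and the other knockout libraries below it, for a log2 fold change of -0.39 ± 0.20 (limma adjusted p = 0.268). MVD, which decarboxylates the product to isopentenyl diphosphate, stood at 7.65, 5.82 and 5.49 FPKM in non-target and 13.7, 7.04 and 9.52 in knockout. Knockout 2 lay below non-target 1, but each knockout library exceeded its same-numbered control, and the log2 fold change was 0.57 ± 0.24 (limma adjusted p = 0.17, and 0.0145 with the replicate block). Without knockout 1 it was 0.34 (adjusted p = 0.272). IDI1, the isomerase of isopentenyl diphosphate, stood at 6.03, 5.11 and 4.76 FPKM in non-target and 12.6, 6.43 and 6.14 in knockout. Its groups did not overlap, with a log2 fold change of 0.51 ± 0.25 (limma adjusted p = 0.244, and 0.0343 with the block). Without knockout 1 the IDI1 value was 0.22 (adjusted p = 0.39), and without both libraries numbered 1 it was 0.30 (adjusted p = 0.181). FDPS, farnesyl diphosphate synthase, was the most abundant member in non-target by FPKM, at 48.3 ± 5.19 (SD, n = 3), and stood at 53.8 ± 6.93 in knockout, with overlapping groups.

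The committed sterol enzymes make squalene and turn it into lanosterol. FDFT1, squalene synthase, stood at 35.9, 30.0 and 30.7 FPKM in non-target and 62.9, 26.4 and 32.0 in knockout, where knockout 1 alone lay above the non-target range. Its log2 fold change was 0.22 (limma adjusted p = 0.681) and turned negative, without a call, when knockout 1 was left out. SQLE, squalene epoxidase, ranged from 6.5 to 9.44 FPKM in non-target and from 7.81 to 13.2 in knockout (log2 fold change 0.29, limma adjusted p = 0.46). LSS, which closes the rings of lanosterol, stood at 7.29, 6.37 and 5.73 FPKM in non-target and 9.37, 8.38 and 9.07 in knockout. All 3 knockout libraries of LSS were close together and above the controls, with a log2 fold change of 0.42 ± 0.16 (limma adjusted p = 0.143, and 0.0935 with the replicate block).

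Among the 8 members that act between lanosterol and cholesterol, MSMO1 and DHCR7 had the largest differences over all 6 libraries. Of these 8, TM7SF2 had the largest without knockout 1 (0.49) or without both libraries numbered 1 (0.58). MSMO1, the methylsterol monooxygenase that starts removal of a methyl group (chromosome 4, 166248819 to 166264316 in GRCh37), stood at 7.72, 7.06 and 6.93 FPKM in non-target and 26.1, 7.65 and 10.1 in knockout. Knockout 1 was far above all other libraries, knockout 3 was also above every control, and knockout 2 lay within the control range. Its log2 fold change was 0.74 ± 0.36 (limma adjusted p = 0.233, and 0.000487 with the replicate block). The log2 differences of MSMO1 in pairs 1, 2 and 3 were 1.64, 0.10 and 0.49. The block fit used an SE of 0.18 from the shared spread, so its p does not measure how far these pairs differ. The fold change rested largely on knockout 1, without which it was 0.25 (adjusted p = 0.334), and it was 0.29 without both libraries numbered 1 (adjusted p = 0.271). DHCR7, the reductase of a last step (chromosome 11, 71139239 to 71163914), stood at 20.3, 16.9 and 16.8 FPKM in non-target and 44.8, 21.7 and 21.0 in knockout. Its groups did not overlap, though knockout 2 and 3 exceeded non-target 1 by little, and the log2 fold change was 0.58 ± 0.27 (limma adjusted p = 0.216, and 0.00436 with the block). Without knockout 1 the DHCR7 value was 0.24 (adjusted p = 0.312), and without both libraries numbered 1 it was 0.32 (adjusted p = 0.122). CYP51A1, the demethylase of lanosterol, stood at 36.9, 24.5 and 23.9 FPKM in non-target and 47.6, 24.3 and 25.6 in knockout, so that the libraries numbered 1 were high in both genotypes. Its log2 fold change was 0.15 (limma adjusted p = 0.79).

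The other 5 late enzymes among the members overlapped between genotypes and passed no test with the block. TM7SF2, a sterol reductase, ranged from 13.7 to 17.8 FPKM in non-target and from 17.7 to 27.9 in knockout, with knockout 3 the highest (log2 fold change 0.39, limma adjusted p = 0.289). HSD17B7, a ketosteroid reductase, ranged from 2.30 to 3.13 FPKM in non-target and from 3.09 to 4.52 in knockout (log2 fold change 0.34, limma adjusted p = 0.297). NSDHL, a sterol dehydrogenase, EBP, a sterol isomerase, and SC5D, a sterol desaturase, differed by little. Their log2 fold changes were 0.14, -0.03 and 0.01 (limma adjusted p = 0.694, 0.945 and 0.986), and that of SC5D was negative with TPM and median-ratio scaling.

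INSIG1 had the largest difference of the 31 genes over all 6 libraries, though SCD exceeded it without both libraries numbered 1, without non-target 1 and with array weights. It encodes the membrane protein that holds back SCAP, and it lies on chromosome 7 at 155089486 to 155101945 (GRCh37). INSIG1 stood at 11.4, 6.62 and 5.81 FPKM in non-target 1, 2 and 3 and at 50.1, 14.6 and 14.4 FPKM in knockout 1, 2 and 3. The groups did not overlap, and in each genotype the library numbered 1 was the highest. The ratio of knockout to non-target INSIG1 was 4.38, 2.20 and 2.48 in pairs 1, 2 and 3. The log2 fold change was 1.42 ± 0.44 (SE, n = 3 a group; 95% interval 0.43 to 2.40), with a limma adjusted p of 0.0677. With the replicate block the limma adjusted p was 4.74e-14, with an SE of 0.18 from a spread that limma shares among genes. The log2 differences of INSIG1 in pairs 1, 2 and 3 were 2.04, 1.03 and 1.18. That p thus does not measure how far the pairs of INSIG1 differ. Without both libraries numbered 1 the log2 fold change was 1.10 (adjusted p = 0.00545). Without knockout 1 alone it was 0.84 (adjusted p = 0.0613), and with non-target 2 and 3 as 1 sample it was 1.28 (adjusted p = 0.303). Of 13 fits with libraries left out, INSIG1 passed in 1. INSIG2, the paralog with the same role, ranged from 6.18 to 8.05 FPKM in non-target and from 7.15 to 10.5 in knockout, with a log2 fold change of 0.25 (limma adjusted p = 0.487).

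The ratio of INSIG1 to INSIG2 was 1.42, 1.07 and 0.933 in non-target and 4.77, 1.98 and 2.01 in knockout. The groups did not overlap (two-sided exact permutation p = 0.1, the smallest that 3 against 3 libraries can give). The ratio of INSIG1 to HMGCS1, both known targets of the SREBP pathway, was 1.55, 0.932 and 0.876 in non-target and 3.83, 3.20 and 3.67 in knockout (exact permutation p = 0.1). That ratio was similar in all 3 knockout libraries, although the FPKM of each gene was far higher in knockout 1 than in knockout 2 and 3. These ratios were chosen after the values were seen. Over the 4 ratios computed here, the Benjamini-Hochberg adjusted p of each of these was 0.133, and 3 libraries a group cannot reach the threshold.

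The mean transcript levels of the SREBP factors themselves differed little between the groups. SREBF1 ranged from 16.3 to 22.9 FPKM in non-target and from 18.2 to 22.4 in knockout, with a log2 fold change of 0.14 (limma adjusted p = 0.698). SREBF2 stood at 27.4, 22.7 and 21.8 FPKM in non-target and 31.7, 19.97 and 17.1 in knockout, with a log2 fold change of -0.10 (limma adjusted p = 0.833). Knockout 1 was the highest and knockout 2 and 3 the lowest of the 6 libraries for SREBF2, and non-target 1 was the highest of its group. Without knockout 1 the SREBF2 value was -0.35 (limma adjusted p = 0.185). SCAP, the escort protein, stood at 15.6, 14.9 and 15.4 FPKM in non-target and 16.8, 21.6 and 23.3 in knockout. Its groups did not overlap, and here knockout 1 was the lowest of the knockout libraries. The log2 fold change of SCAP was 0.39 ± 0.17 (limma adjusted p = 0.186, and 0.0836 with the replicate block), and without both libraries numbered 1 it was 0.54 (adjusted p = 0.0386). STARD4, a carrier of sterols between membranes, stood at 3.78, 1.63 and 1.57 FPKM in non-target and 6.59, 3.54 and 2.07 in knockout. Non-target 1 lay above knockout 2 and 3, and each knockout library lay above its same-numbered control (log2 fold change 0.57 ± 0.35, limma adjusted p = 0.351, and 0.0191 with the replicate block). Without knockout 1 the STARD4 value was 0.23 (adjusted p = 0.639).

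**Figure D3:**
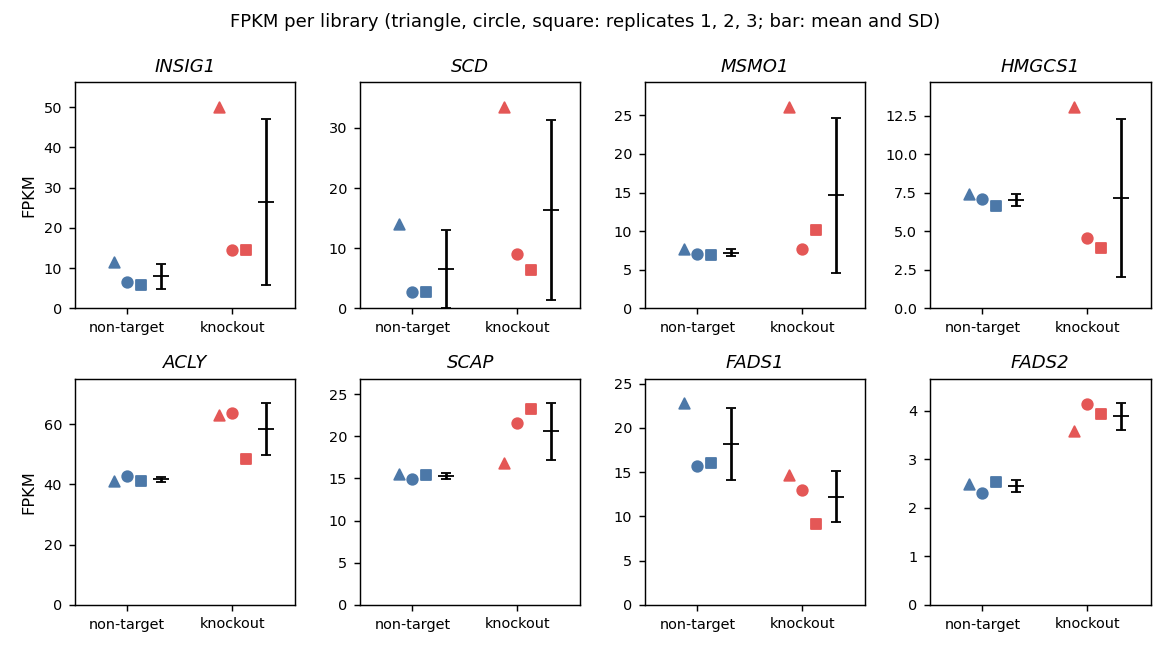
FPKM of single genes in each library (points, with the shape giving the replicate number) with the mean (horizontal tick) and SD (error bar) of 3 libraries a group; non-target is blue and knockout red. INSIG1 and SCD are highest in replicate 1 of both genotypes, and FADS1 is lower and FADS2 higher in all 3 knockout libraries.

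In the fatty acid branch, SCD had the largest difference and the widest spread. SCD is the stearoyl-CoA desaturase, which makes monounsaturated from saturated fatty acids, and lies on chromosome 10 at 102106990 to 102124583 (GRCh37). It stood at 14, 2.78 and 2.81 FPKM in non-target and 33.5, 8.97 and 6.45 in knockout. Non-target 1 lay above knockout 2 and 3, so the groups overlapped, but the ratio of knockout to non-target SCD was 2.39, 3.23 and 2.30 in pairs 1, 2 and 3. The log2 fold change of SCD was 1.19 ± 0.63 (limma adjusted p = 0.283). With the replicate block the adjusted p was 5.28e-09, and without both libraries numbered 1 the log2 fold change was 1.18 (adjusted p = 0.013). Leaving out knockout 1 alone gave 0.52 (adjusted p = 0.551), leaving out non-target 1 alone gave 1.85 (adjusted p = 0.104), and non-target 2 and 3 as 1 sample gave 0.86 (adjusted p = 0.725). Of 13 fits with libraries left out, SCD passed in 1. Its ratio to the paralog SCD5 was 0.91, 0.272 and 0.235 in non-target and 1.28, 0.501 and 0.391 in knockout (exact permutation p = 0.5).

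ACLY, which makes cytosolic acetyl-CoA from citrate, stood at 41.2, 42.7 and 41.2 FPKM in non-target and 62.9, 63.8 and 48.4 in knockout. The groups did not overlap, and knockout 3 was the lowest of its group. This gave a log2 fold change of 0.47 ± 0.17 (limma adjusted p = 0.112, and 0.0317 with the replicate block). ACACA, which carboxylates acetyl-CoA, ranged from 9.19 to 11 FPKM in non-target and from 6.87 to 13.9 in knockout (log2 fold change 0.07, limma adjusted p = 0.894; negative with TPM scaling). FASN, fatty acid synthase, stood at 27.8, 39.1 and 39.1 FPKM in non-target and 52.8, 48.6 and 38.6 in knockout. Non-target 1 was the lowest library of FASN, unlike for SCD, and the log2 fold change was 0.40 (limma adjusted p = 0.25). ELOVL6, an elongase of fatty acids, ranged from 4.10 to 5.79 FPKM in non-target and from 3.76 to 6.84 in knockout (log2 fold change 0.07, limma adjusted p = 0.884; negative with TPM scaling).

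The neighbouring desaturase genes FADS1 and FADS2, which act in the synthesis of polyunsaturated fatty acids, differed in opposite directions. FADS1 stood at 22.8, 15.7 and 16.0 FPKM in non-target and 14.7, 12.9 and 9.09 in knockout. FADS2 stood at 2.49, 2.30 and 2.53 FPKM in non-target and 3.58, 4.13 and 3.93 in knockout. Neither gene overlapped between the genotypes. The log2 fold change was -0.54 ± 0.22 for FADS1 (limma adjusted p = 0.159, and 0.0117 with the replicate block) and 0.50 ± 0.16 for FADS2 (adjusted p = 0.0755, and 0.0451 with the block). Without knockout 3 the FADS1 value was -0.35 (adjusted p = 0.339). The ratio of FADS2 to FADS1 was 0.109, 0.146 and 0.158 in non-target and 0.243, 0.319 and 0.433 in knockout, again without overlap (exact permutation p = 0.1, the smallest possible; chosen after the values were seen).

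FADS1 lies on chromosome 11 at 61567099 to 61596790 on the minus strand and FADS2 at 61560452 to 61634826 on the plus strand (GRCh37). In the annotation the whole FADS1 span of 29692 bases lies within that of FADS2, and 490 bases of exon are shared on opposite strands. The sources used here do not say whether the counting used strand, so fragments there may have been counted for either gene. The paralog FADS3 lies on the minus strand, and its nearer end is 6165 bases past the end of FADS2. FADS3 rose from 18.7, 15.4 and 15.9 FPKM to 23.5, 26.2 and 30.0 (log2 fold change 0.64, limma adjusted p = 0.0344). In 13 fits that left out 1 library (with the filter redone or on the same genes) or both libraries numbered 1, it passed in 5 (adjusted p up to 0.21). Of the 31 genes, 5 (FDPS, IDI1, CYP51A1, HSD17B7 and SCD) have annotated pseudogene copies. Exon bases are shared with a gene on the other strand in 16. They are shared with a gene on the same strand in 5 (CYP51A1, TM7SF2, EBP, FADS1 and FADS2). The levels of all these genes are uncertain where the counting could split such fragments.

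By branch, the median log2 fold change was 0.26 for the 18 sterol enzymes, 0.32 for the 6 regulators and 0.40 for the 7 fatty acid enzymes. Without both libraries numbered 1 the medians were 0.21, 0.37 and 0.14, so the fatty acid enzymes went from the highest to the lowest of the 3. The difference between branches was not tested. With the replicate block, 5 sterol enzymes were called higher and 0 lower, 2 regulators higher and 0 lower, and 3 fatty acid enzymes higher and 1 lower. At an unadjusted p under 0.05 without the block, the sterol enzymes gave 3 higher and 0 lower, the regulators 2 and 0, and the fatty acid enzymes 2 and 1. In pair 3 the median of the fatty acid enzymes was -0.02, where FASN, ACACA, FADS1 and ELOVL6 were below their control.

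**Figure D4:**
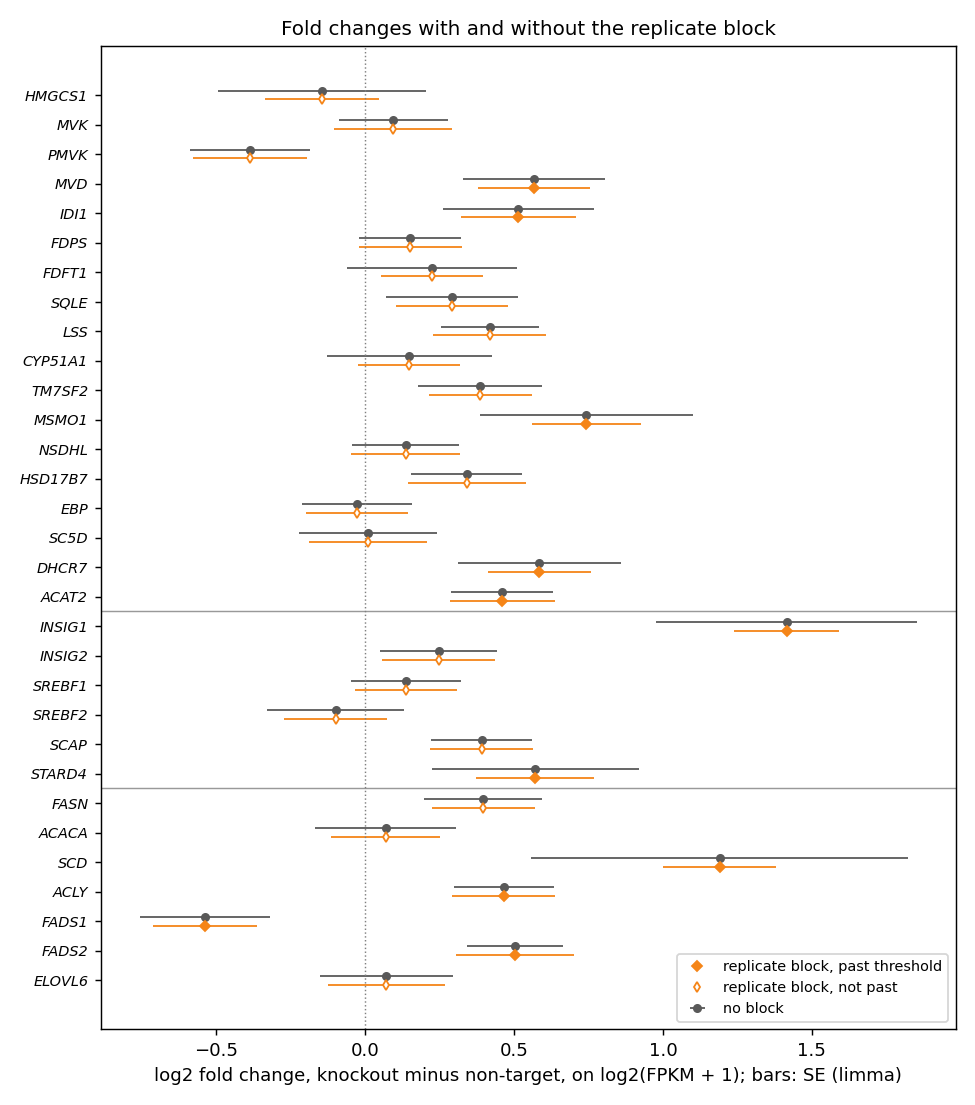
Log2 fold change (x axis, knockout minus non-target on the log2(FPKM + 1) scale) of the 31 genes, in the order sterol branch, regulators and fatty acid branch, with bars of 1 SE from limma without the replicate block (grey) and with it (orange; filled where past the threshold). INSIG1 lies farthest right at 1.42, SCD stands at 1.19 with an SE of 0.63 without the block and 0.19 with it, and FADS1 lies farthest left at -0.54.

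In 5 lists of other genes of these pathways, 6 of 67 measured genes rose and 3 fell (limma, adjusted p under 0.05; 12 and 8 with the replicate block). These are 8.96% and 4.48%, near the 6.26% and 5.93% of all genes. The counts were 3 and 3 with TPM scaling, 6 and 5 with median-ratio scaling and 5 and 6 with quantile normalization. The lists hold 75 symbols, of which 71 were in the files. Of 12 genes of sterol traffic and its control by LXR, 2 rose and 0 fell. NPC2, the lysosomal protein that hands over cholesterol, stood at 137, 60.5 and 68.9 FPKM in non-target and 596, 517 and 697 in knockout. It rose by 2.83 ± 0.29 on the log2 scale (limma adjusted p = 0.000256), more than any of the 31 synthesis genes, and knockout 1 was not the highest library. NPC1, its partner in the lysosomal membrane, stood at 12, 8.94 and 8.81 FPKM in non-target and 25.0, 13.5 and 8.54 in knockout. GRAMD1A, a sterol carrier at membrane contacts, rose by 0.96 (limma adjusted p = 0.0346), but passed in 3 of 13 fits with libraries left out (adjusted p up to 0.138).

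Of 18 genes of acetyl-CoA supply and elongation, 3 rose and 1 fell. ACSS2, which makes acetyl-CoA from acetate, stood at 14.4, 7.37 and 8.51 FPKM in non-target and 31, 21.9 and 24 in knockout. It rose by 1.30 ± 0.25 on the log2 scale (limma adjusted p = 0.00746) and was highest in the libraries numbered 1, as INSIG1 and SCD were. FADS3, described above, also rose. ME1, the malic enzyme that supplies NADPH, fell by 0.72 (limma adjusted p = 0.0232). It passed in 3 of 13 fits with libraries left out, with adjusted p up to 0.0921.

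Of 14 genes of glycerolipid synthesis, 1 rose and 1 fell, both of them ligases that attach CoA to long-chain fatty acids. ACSL1 stood at 6.82, 5.10 and 4.94 FPKM in non-target and 21.0, 14.6 and 11.7 in knockout, and rose by 1.31 ± 0.23 on the log2 scale (limma adjusted p = 0.00458). ACSL5 stood at 34.2, 37.2 and 38.1 FPKM in non-target and 9.61, 19.6 and 18 in knockout, and fell by 1.22 ± 0.25 (limma adjusted p = 0.0104). The pair thus moved in opposite directions without overlap.

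Of 12 genes of SREBP proteolysis and sterol-regulated turnover, 0 rose and 1 fell. The gene that fell was RNF145, a ubiquitin ligase of the endoplasmic reticulum, at 26.8, 35.0 and 33.7 FPKM in non-target and 15.9, 17.5 and 16.0 in knockout. Its log2 fold change was -0.90 ± 0.17 (limma adjusted p = 0.00614), and it passed in 11 of 13 fits with libraries left out. Of 11 genes of the non-sterol mevalonate branch, 0 passed. The smallest p there was that of PGGT1B, a subunit of a protein prenyltransferase, with a log2 fold change of -0.53 (limma adjusted p = 0.0739, and 0.024 with the replicate block).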

How the data were processed

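Poly-A RNA of 3 non-target and 3 SHARPIN knockout LoVo samples was made into dUTP libraries, per the labels' protocols. The deposited values are FPKM, computed by the authors with STAR 2.7.10b after alignment with TopHat2 2.1.1 to hg19, per the submitters' processing notes. The sources used here do not state whether counting used strand.

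Symbols missing from a library were set to 0. Depth was estimated from the step on which low FPKM times length gather. Only 64 to 88 of 392 to 473 values a library lay on it (within 2%), so no count test was run. limma 3.58.1 (R 4.3.3; intensity trend, robust) was fitted to log2(FPKM + 1) of the 13092 genes that reached 1 FPKM in 3 or more of the 6 libraries, two-sided, with Benjamini-Hochberg adjustment over those genes. Gene coordinates are from GENCODE on GRCh37 (89% of symbols matched), and promoters from RefSeq on GRCh38.p14, used only for sequence.

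The main fit took no pairing, because the labels do not say that a replicate number marks a shared day or batch. The block fit and the readings within pairs took libraries of the same number as pairs. Across genes, the deviations of same-numbered libraries from their group's mean correlated at 0.547, 0.309 and 0.331. Non-target 2 correlated with knockout 3 at 0.320 and non-target 3 with knockout 2 at 0.321, so only the pairing of the libraries numbered 1 stands out. The members, lists and tests were chosen with earlier results of these data known. Genes named beside the members are, in each list, the 4 or fewer called genes that changed most or, with none called, the gene of smallest p. A gene that meets this rule is not reported here. NPC1 and SCD5 were named after their values were seen. Alternatives were other pseudocounts (0.5 and 0.1), filters, scalings, limma without trend, array weights, a replicate block, and leaving out libraries. The script was tested on simulated data.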

Additional observations from a re-analysis of the deposited data

How the results depend on the processing

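Over 24 alternatives, 695 of 738 values of the 31 genes stayed on the same side of the threshold and 43 gained a call. None of the 31 was called in the analysis as reported, so none could lose a call, and 10 changed sign without being called. In 16 alternatives no member was called. The count of sterol genes called, 0, became 10 with array weights, 5 with a replicate block and 1 without both libraries numbered 1. For the regulators 0 became 3, 2 and 2, and for the fatty acid genes 5, 4 and 2, with 1 under quantile normalization. Leaving out single libraries gave 0 to 1 in each branch, with knockout 1 (HMGCS1, SCAP and FADS2) or knockout 3 (ACLY) left out. In the other pathway lists the 9 calls became 31 with array weights, 20 with the block, 4 with non-target 2 and 3 counted as 1 sample, and 4 to 10 with single libraries left out. Over all genes, 1597 calls became 5269, 3309, 677 and 648 to 1970 in the same order, and 865 with a mean of at least 5 FPKM. Among single libraries left out, the fits without non-target 2 or 3 gave the fewest. The cause was not tested. With 3 libraries a group, and fragment counts not used here, no counting error is given for low genes such as STARD4 and FADS2.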
